A study of Homo sapiens with 6 samples.

Results

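TPPP3, 8 tubulin genes (TUBA1A, TUBA1B, TUBA1C, TUBA4A, TUBB, TUBB2A, TUBB4B and TUBB6) and STMN1 were examined in HT29, an established line of human colorectal adenocarcinoma cells. They are 10 of the 58978 genes of the count table, and all 10 were among the 14809 that passed the filter on low counts. The set was chosen by gene name and selected on the strong rise of TPPP3 in the comparison described here. The differences of these 10 genes between the groups are therefore a description, with no p-value. Every value is a transcript level from bulk RNA-seq.

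The cells carried either a control hairpin (shCTRL, genotype given as WT, 3 libraries) or a hairpin against FITM2 (shFITM2, FITM2 knockdown, 3 libraries), and the labels give all 6 as untreated. FITM2 is an endoplasmic reticulum protein needed for lipid droplet formation. The study's title places the knockdown in work on lipid droplets and the trafficking of the interferon gamma receptor. The sources used here give neither the number nor the sequence of the hairpins. No label says that the libraries of a group came from separate cultures, so the spread between them may be technical.

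Microtubules are hollow polymers of alpha- and beta-tubulin heterodimers that grow and shrink at their ends. Each class is encoded by several genes, called isotypes, which differ mostly in the acidic tail at the end of the protein. Tubulin mRNA is under autoregulation: when free tubulin dimers are abundant, TTC5 binds the first residues of a nascent tubulin chain on the ribosome and, through SCAPER and the CNOT11 subunit of the CCR4-NOT deadenylase, sets off decay of the mRNA being translated. TPPP3 is a small member of the tubulin polymerization-promoting protein family, which binds and bundles microtubules. STMN1 (stathmin, oncoprotein 18) does the opposite, since it sequesters tubulin dimers and promotes microtubule shrinkage, and phosphorylation in mitosis switches it off.

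The coding starts of the members are shown because those of the tubulins encode the residues bound in autoregulation. The first 12 coding bases, which encode the first residues, are in capitals, and each sequence runs 5′ to 3′ from a GENCODE 29 transcript of the gene.
TPPP3: ATGGCAGCGAGCacagacatggct
TUBA1A: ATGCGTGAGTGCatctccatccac
TUBA1B: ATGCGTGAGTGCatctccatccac
TUBA1C: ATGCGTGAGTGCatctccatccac
TUBA4A: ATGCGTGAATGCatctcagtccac
TUBB: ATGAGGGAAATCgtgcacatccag
TUBB2A: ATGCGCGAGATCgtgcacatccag
TUBB4B: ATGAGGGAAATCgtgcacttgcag
TUBB6: ATGAGGGAGATCgtgcacatccag
STMN1: ATGGCTTCTTCTgatatccaggtg
The 24 bases were the same letter for letter in TUBA1A, TUBA1B and TUBA1C. TPPP3 and STMN1, which are not tubulins, start with other codons. The reading frames hold 448 to 451 codons before the stop in the alpha-tubulins, 444 to 446 in the beta-tubulins, 176 in TPPP3 and 149 in STMN1.

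Coding ends of 6 tubulin genes are shown because the tails are where the isotypes differ and where enzymes act. The last codon before the stop is in capitals.
TUBA1C: gacggagaggatgagggtgaagagTATtaa
TUBA4A: tatgaggacgaggatgagggagaaGAAtaa
TUBB: ttcggtgaggaggccgaagaggagGCCtaa
TUBB2A: gaggaggaggagggcgaggacgagGCTtaa
TUBB4B: gaggaggaggctgaggaggaggtgGCCtag
TUBB6: gaggatgaggaagaggagatcgatGGAtag
TUBA1A, TUBA1B and TUBA1C encode a final tyrosine, which vasohibins with SVBP remove from alpha-tubulin in microtubules and tubulin tyrosine ligase (TTL) puts back on. The final codon of TUBA4A encodes glutamate, so its product is made without that tyrosine. The beta-tubulin tails printed here end in alanine or, in TUBB6, glycine codons.

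The similarity of these genes limits how far their reads can be told apart. Over the coding sequence, TUBA1A and TUBA1B were 97.2% identical, TUBA1B and TUBA1C 97.3%, and TUBA1A and TUBA1C 96.3%. TUBA4A was 85.0% to 86.3% identical to these 3 genes, and the 4 beta-tubulins were 81.3% to 87.2% identical to each other. Of all windows of 50 bases in the annotated transcripts, 62.7% in TUBA1B, 41.1% in TUBA1A and 25.1% in TUBA1C occurred unchanged in another gene. In TUBB2A this share was 65.5%, mostly shared with TUBB2B. It was 18.2% in TUBB, 9.89% in TUBB4B, 5.25% in TUBA4A and 0.993% in TUBB6, and no such window was found for TPPP3 or STMN1. The values of TUBA1A, TUBA1B, TUBA1C and TUBB2A are therefore uncertain where reads could be assigned to a paralog.

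The 6 libraries held 16964075 to 18855731 counts. Levels are given in CPM, reads scaled to a common library total after TMM normalisation. FITM2 read 13.2, 10.5 and 10.4 CPM under the control hairpin against 4.83, 5.98 and 4.95 CPM under the FITM2 hairpin (log2 fold change -1.12 ± 0.16 SE, adjusted p = 0.000242 by edgeR's quasi-likelihood test). Colon epithelial markers summed to 9401 to 11327 CPM in shCTRL and 12766 to 13479 CPM in shFITM2. Most of the sum was KRT8 (means of 6142 and 8384 CPM) and KRT18 (2719 and 3439 CPM). EPCAM was lower in shFITM2 (634 and 549 CPM), CDH1 was nearly level (349 and 347 CPM), and CDX2 and CDX1 were below 2 CPM in both group means. Of the genes tested, 48.7% were called between the groups, 24.2% higher and 24.5% lower in shFITM2. The difference between the groups followed transcript GC content across genes (Spearman correlation 0.74, a description over genes that share the 6 libraries). With genes split into 10 classes of equal size by GC content, median log2 fold changes ran from -0.47 in the lowest class to 0.70 in the highest. The slope of a library's log2 deviation per 10 percentage points of GC was -0.27, -0.34 and -0.06 in shCTRL libraries 1 to 3 and 0.26, 0.23 and 0.18 in the shFITM2 libraries, so that shCTRL library 3 stood apart from the other controls. What part GC content plays in any difference was not tested, and log2 fold changes below are set beside a second fit with an offset for GC content, in which 29.2% of genes were called (11.8% higher and 17.4% lower).

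**Figure D1:**
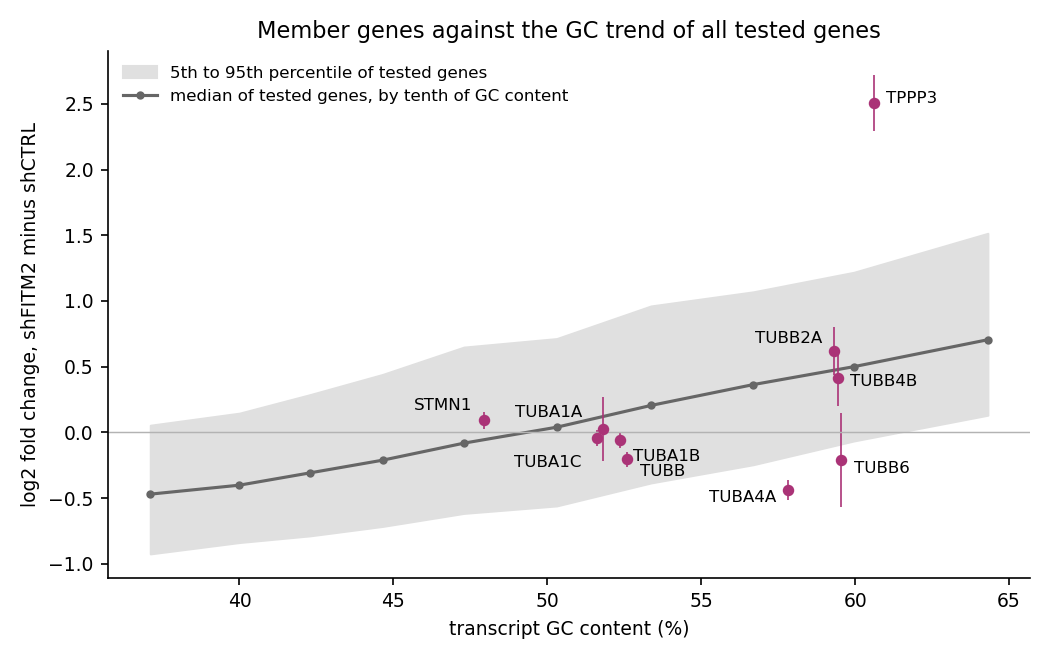
Log2 fold change (shFITM2 minus shCTRL) against transcript GC content in percent, with the median and the 5th to 95th percentile of all tested genes in each of 10 GC classes (line and grey band) and the 10 members as labelled points with bars of 1 SE. The median rises from -0.47 to 0.70, TPPP3 lies above the band, and TUBA4A and TUBB6 lie below it.

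TPPP3 (ENSG00000159713, GRCh38 chromosome 16, 67389809 to 67393535, minus strand) was low in the controls and several times higher in the knockdown. It stood at 3.82, 3.73 and 7.16 CPM in the shCTRL libraries, from 72, 69 and 122 reads. In the shFITM2 libraries it stood at 28.98, 26.5 and 27.8 CPM, from 528, 460 and 471 reads. The lowest shFITM2 library was well above the highest control, and shCTRL library 3 was the highest of the controls. The group means were 4.90 ± 1.95 and 27.7 ± 1.27 CPM (SD, n = 3 each), so the knockdown held 566% of the control level. The log2 fold change was 2.51 ± 0.21 (SE), and 1.96 ± 0.14 with the GC offset. Without shCTRL library 3 it was 2.87, and 2.20 with the offset.

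The transcript of TPPP3 is rich in GC, at 60.6%. Among the genes of the same GC class (58.3% to 61.8%), whose median log2 fold change was 0.50, 99.8% had a lower value than TPPP3. The set was selected on this rise, so the rank is a description and not a test. Its paralog TPPP was at 10.9, 9.95 and 12.6 CPM in shCTRL and 18.2, 16.2 and 17.6 CPM in shFITM2. TPPP rose by 0.64 ± 0.12 on the log2 scale (adjusted p = 0.00129, edgeR), but with the GC offset its value was 0.12 (adjusted p = 0.417). CEP72 overlaps TPPP on the opposite strand.

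TPPP3 is also known as a transcript of multiciliated cells. Of 8 markers of that cell type, 4 passed the filter and 3 of these were called higher in shFITM2, beside 24.2% of all genes. Values with the GC offset are not set beside these calls. FOXJ1, near the floor of the filter in shCTRL, passed it through its shFITM2 libraries. Nothing is therefore read from the count of calls. The summed level of the 8 markers was 9.63 to 13.3 CPM in shCTRL and 26.7 to 27.4 CPM in shFITM2. CAPS, a calcium-binding protein, had the highest level of the 8, at a mean of 5.48 CPM in shCTRL and 16.99 CPM in shFITM2. FOXJ1, the transcription factor that directs motile cilium formation, was at 0.517 and 2.06 CPM, and RSPH1, a radial spoke protein, at 3.05 and 5.29 CPM. DNAH5 was at 1.60 and 2.03 CPM. TEKT1 was at 0 in every library. PIFO, DNAI1 and CCDC39 did not exceed 0.690 CPM in any, and their means were slightly lower in shFITM2. The part of these genes in the result for TPPP3 was not tested, and in bulk RNA more cells with a transcript and more transcript per cell cannot be told apart. Neuronal markers summed to at most 0.472 CPM in any library, fibroblast markers to at most 2.82 CPM, and the immune markers were nearly all LYZ, with PTPRC at 0.165 CPM at most.

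**Figure D2:**
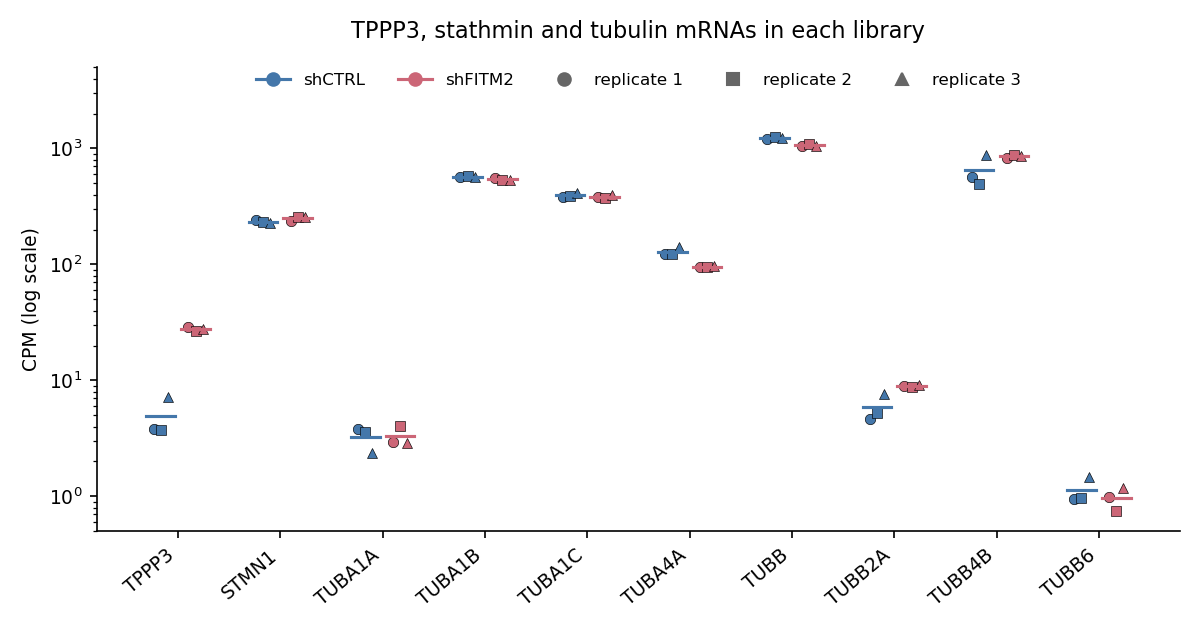
CPM of each of the 10 members in each library, on a log scale, coloured by group with a marker shape for each replicate number and a line at each group's mean. For TPPP3 every shFITM2 library lies above 26 CPM and every control below 8 CPM, and for TUBB4B shCTRL library 3 lies among the shFITM2 libraries.

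Among the alpha-tubulins, the main subunit genes TUBA1B and TUBA1C were nearly level, TUBA4A was lower in shFITM2 and TUBA1A was scarce. TUBA1B (ENSG00000123416, chromosome 12, 49127782 to 49131397, minus strand), the most abundant of them, stood at 566, 577 and 563 CPM in shCTRL and 560, 539 and 538 CPM in shFITM2. Every shFITM2 library was below every control, but the means, 569 ± 7.37 and 546 ± 12.2 CPM, differed by a log2 fold change of only -0.06 ± 0.06. The GC offset moved it to -0.23 ± 0.05.

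TUBA1C (ENSG00000167553, chromosome 12, 49188736 to 49274603, plus strand) stood at 381, 386 and 415 CPM in shCTRL and 379, 372 and 395 CPM in shFITM2. Its groups overlapped, and the log2 fold change was -0.04 ± 0.06, or -0.18 ± 0.05 with the GC offset. TUBA1C kept its ratio to TUBA1B, with 0.693 ± 0.0387 reads per TUBA1B read in shCTRL and 0.701 ± 0.0293 in shFITM2.

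TUBA4A (ENSG00000127824, chromosome 2, 219249711 to 219278170, minus strand), the isotype that ends in glutamate, had the lowest log2 fold change of the 10 genes in both fits. It stood at 124, 122 and 142 CPM in shCTRL and 94.5, 95.1 and 96.3 CPM in shFITM2. The groups did not overlap, and shCTRL library 3 was the highest of the 6. Its mean went from 129 ± 10.8 to 95.3 ± 0.917 CPM, which is 73.8% of the control, a log2 fold change of -0.44 ± 0.08. With the GC offset the value was -0.87 ± 0.05. Its transcript has 57.8% GC, and only 1.91% of the genes in its GC class had a lower log2 fold change. Without shCTRL library 3 it was -0.37, and -0.88 with the offset.

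The ratio of TUBA4A to TUBA1B reads was 0.219, 0.211 and 0.252 in shCTRL and 0.169, 0.176 and 0.179 in shFITM2. Every shFITM2 value was below every control. STK16, a kinase gene, has an annotated span that overlaps that of TUBA4A by 627 bases on the opposite strand. STK16 held 2782 reads in all against 12014 for TUBA4A and did not pass the test (log2 fold change 0.22, adjusted p = 0.109, edgeR, and -0.02 with the offset).

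TUBA1A (ENSG00000167552, chromosome 12, 49184796 to 49189324, minus strand), an isotype abundant in neurons, stood at 3.82, 3.57 and 2.35 CPM in shCTRL and 2.96, 4.08 and 2.89 CPM in shFITM2. The groups overlapped, with a log2 fold change of 0.03 ± 0.24 (-0.13 ± 0.24 with the offset). Its annotated span overlaps that of TUBA1C by 589 bases on the opposite strand. TUBA1C had 41471 reads in all and TUBA1A 352. TUBA1A also shares long runs of sequence with TUBA1B, so its level is uncertain.

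The beta-tubulins divided: TUBB was lower in shFITM2, TUBB2A was higher without the GC offset and close to the control with it, and the groups overlapped for TUBB4B and TUBB6. TUBB (ENSG00000196230, chromosome 6, 30720201 to 30725426, plus strand) is the main beta-tubulin of dividing cells. It stood at 1209, 1253 and 1222 CPM in shCTRL and 1051, 1084 and 1059 CPM in shFITM2. The groups did not overlap, and the spread within each was small, at 22.3 and 17.1 CPM (SD). The shFITM2 mean was 86.7% of the control, a log2 fold change of -0.21 ± 0.06 (-0.39 ± 0.05 with the offset). Without shCTRL library 3 these were -0.22 and -0.42.

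TUBB4B (ENSG00000188229, chromosome 9, 137241213 to 137243707, plus strand), a widely expressed beta-tubulin that is also a component of ciliary axonemes, stood at 572, 494 and 872 CPM in shCTRL. In shFITM2 it stood at 834, 885 and 865 CPM. The third shCTRL library lay within the range of the shFITM2 libraries, while the other controls lay far below. The log2 fold change was 0.42 ± 0.21, and it was 0.69 ± 0.05 without shCTRL library 3. With the GC offset the value was -0.07 ± 0.15, and 0.09 without that library. Its transcript has 59.4% GC, and the median log2 fold change of its GC class was 0.50.

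Set against TUBB, the level of TUBB4B was higher in every shFITM2 library than in any control. There were 0.473, 0.394 and 0.713 TUBB4B reads per TUBB read in shCTRL and 0.794, 0.817 and 0.816 in shFITM2. The control values spread widely (0.527 ± 0.166) and the shFITM2 values hardly at all (0.809 ± 0.0132). TUBB has 52.6% GC, less than TUBB4B, and the part of that gap in the ratio was not tested.

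TUBB2A (ENSG00000137267, chromosome 6, 3153669 to 3157526, minus strand), a minor isotype here that is abundant in neurons, stood at 4.66, 5.25 and 7.63 CPM in shCTRL and 8.95, 8.74 and 9.14 CPM in shFITM2. The groups did not overlap, and shCTRL library 3 was again the closest control to the shFITM2 libraries. The log2 fold change was 0.62 ± 0.18, but 0.12 ± 0.15 with the GC offset. Without shCTRL library 3 it was 0.84, and 0.25 with the offset. TUBB2A shared 60.3% of its 50-base windows with TUBB2B, which was itself at a mean of 0.533 CPM in shCTRL and 0.774 CPM in shFITM2 (log2 fold change 0.54, adjusted p = 0.378, edgeR, and 0.14 with the offset).

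TUBB6 (ENSG00000176014, chromosome 18, 12307669 to 12344320, plus strand) was the scarcest member, with 13 to 25 reads per library. It stood at 0.954, 0.974 and 1.47 CPM in shCTRL and 0.988, 0.748 and 1.18 CPM in shFITM2, with overlapping groups. Its log2 fold change of -0.21 ± 0.36 (-0.72 ± 0.36 with the offset) had the largest error of the set. AFG3L2, on the opposite strand, had 9692 reads against 112 for TUBB6. The whole annotated spans of these genes, introns included, overlap by 15377 bases, and shared exons were not measured. With so few reads the TUBB6 level is uncertain, and the part of AFG3L2 reads in it was not tested. AFG3L2 itself was called lower (-0.20, adjusted p = 0.0269, edgeR), but not when any library other than shCTRL library 3 was left out. With the offset it was called at -0.26 (adjusted p = 0.00174), also in each fit without 1 library.

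STMN1 (ENSG00000117632, chromosome 1, 25884181 to 25906991, minus strand), the dimer-sequestering protein, was close to level. It stood at 243, 230 and 229 CPM in shCTRL and 236, 254 and 258 CPM in shFITM2. The first control lay inside the range of the shFITM2 libraries. The means were 234 ± 7.96 and 249 ± 12.1 CPM, which is a log2 fold change of 0.09 ± 0.07 (0.13 ± 0.05 with the offset). Its transcript, at 48.0% GC, lies where the GC trend was small. Stathmin reads per TUBA1B read were 0.412 ± 0.0162 in shCTRL and 0.458 ± 0.0319 in shFITM2, with overlapping libraries.

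**Figure D3:**
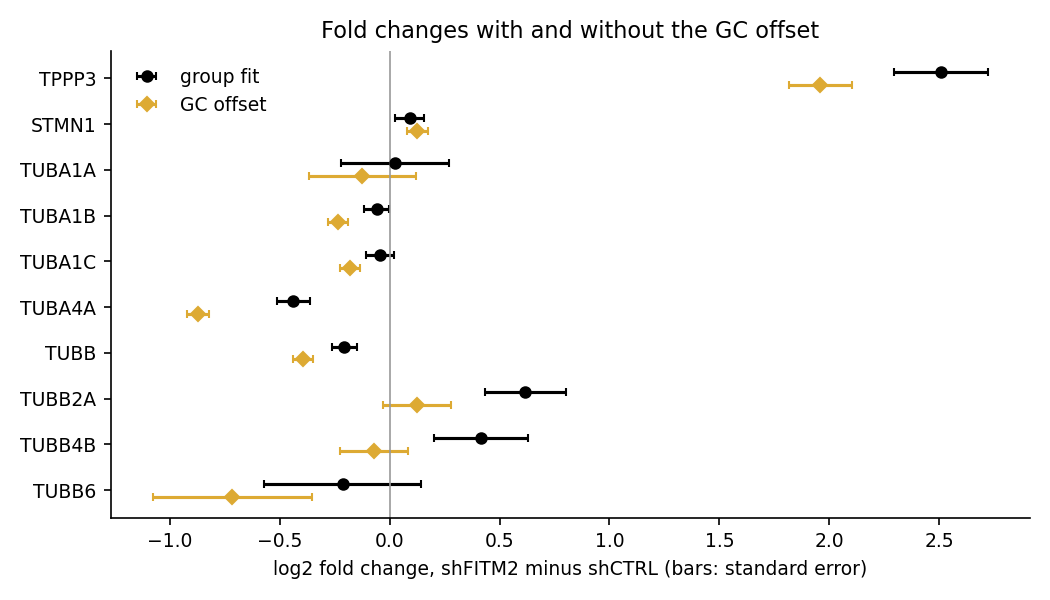
Log2 fold change (shFITM2 minus shCTRL) of the 10 members from the group fit (circles) and from the fit with a GC offset (diamonds), with bars of 1 SE. TPPP3 lies near 2 or above in both, TUBA4A and TUBB lie below 0 in both, and TUBB4B and TUBB2A move toward 0 with the offset.

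Counted over the set, 2 of the 10 members were called higher (TPPP3 and TUBB2A) and 2 lower (TUBA4A and TUBB), beside 48.7% of all genes. With the GC offset, TPPP3 was called higher and TUBA1B, TUBA1C, TUBA4A and TUBB lower, beside 29.2% of all genes. The CPM of the groups did not overlap for 5 members (TPPP3 and TUBB2A higher, TUBA1B, TUBA4A and TUBB lower), beside 59.0% of all genes (29.1% higher and 29.9% lower). Since this contrast chose the set, nothing is read from these counts. The call of TUBB2A was absent without shCTRL library 1, shFITM2 library 1 or shFITM2 library 3, and that of TUBB without shFITM2 library 1. TUBB4B was called higher without shCTRL library 3. With the GC offset, the call of TUBA1C was absent without shFITM2 library 1 or 2, and STMN1 was called higher without shCTRL library 3 or shFITM2 library 1. The median log2 fold change of the members was -0.01, and -0.15 with the offset. Over all genes tested it was -0.0002 and -0.03.

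A sum over paralogs does not depend on how shared reads were divided among the summed genes, though reads dropped or counted to genes outside the sum, such as TUBB2B, still affect it. The 4 alpha-tubulins together made 1075, 1088 and 1122 CPM in shCTRL and 1037, 1010 and 1033 CPM in shFITM2. Every shFITM2 sum was below every control, with a log2 fold change for the class of -0.09 ± 0.06, or -0.28 ± 0.04 with the GC offset. The 4 beta-tubulins made 1787, 1753 and 2103 CPM in shCTRL and 1895, 1979 and 1934 CPM in shFITM2. These groups overlapped, with a log2 fold change of 0.04 ± 0.07, or -0.27 ± 0.05 with the offset. Beta-tubulin reads per alpha-tubulin read were 1.72 ± 0.140 and 1.89 ± 0.0666, also overlapping. Pseudogene rows took few reads, 91 in all beside 113474 for the alpha-tubulins and 1311 beside 203741 for the beta-tubulins. The pseudogene with the most beta-tubulin reads, TUBBP1, was at 11.3 ± 3.57 CPM in shCTRL and 8.51 ± 2.75 CPM in shFITM2 (log2 fold change -0.42, adjusted p = 0.275, edgeR, and -0.66 with the offset, adjusted p = 0.239). Without shCTRL library 3 it was called lower, at -0.63 (adjusted p = 0.0367).

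Levels were compared between genes as CPM per kilobase of the length given in the table. In shCTRL the order was TUBB (366 ± 6.64), TUBB4B (306 ± 94.4), TUBA1B (159 ± 2.06), TUBA1C (85.0 ± 4.00), STMN1 (37.4 ± 1.27), TUBA4A (31.7 ± 2.65), TUBB2A (3.38 ± 0.909), TPPP3 (1.87 ± 0.746), TUBA1A (0.948 ± 0.230) and TUBB6 (0.275 ± 0.0705). TUBB and TUBB4B could not be ordered in shCTRL, because library 3 held more TUBB4B (413 CPM per kilobase) than TUBB (364). TUBB2A and TPPP3 also overlapped over the shCTRL libraries, and the ranges of the other neighbours in this order did not. By the length of 1 annotated transcript per gene, the shCTRL mean of STMN1 was above that of TUBA1C (137 ± 4.65 and 131 ± 6.18). Their libraries overlapped, so these genes could not be ordered by that length. In shFITM2, TUBB4B (408 ± 12.2) came before TUBB (317 ± 5.08), and TPPP3 (10.6 ± 0.484) before TUBB2A (5.18 ± 0.116). By these values TPPP3 was above the minor isotype TUBB2A in every shFITM2 library, though sequence shared with TUBB2B leaves the TUBB2A level uncertain.

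The make-up of each tubulin class, as a share of its summed level per kilobase, changed most between TUBB and TUBB4B. TUBB4B made 42.8%, 38.3% and 52.8% of the beta-tubulin level in shCTRL, and 55.4%, 56.1% and 56.1% in shFITM2. TUBB made nearly all the rest, 56.8%, 61.1% and 46.6% in shCTRL and 43.9%, 43.2% and 43.2% in shFITM2. No library of one group fell in the range of the other, although shCTRL library 3 came close. TUBB2A was 0.496% ± 0.0696 and 0.709% ± 0.0278 of the class, and TUBB6 was below 0.05% in both group means.

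Among the alpha-tubulins, TUBA1B made 57.5% ± 1.54 of the level in shCTRL and 58.8% ± 0.907 in shFITM2, and TUBA1C 30.7% ± 0.874 and 31.8% ± 0.840. TUBA4A made 11.2%, 10.8% and 12.3% in shCTRL against 8.82%, 9.12% and 9.07% in shFITM2, so its share was lower in every shFITM2 library. TUBA1A stayed under 0.4% in both group means. The part of GC content in these shares was not tested. How reads with several matches were counted was not given, so the shares of TUBA1A, TUBA1B, TUBA1C and TUBB2A are uncertain.

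**Figure D4:**
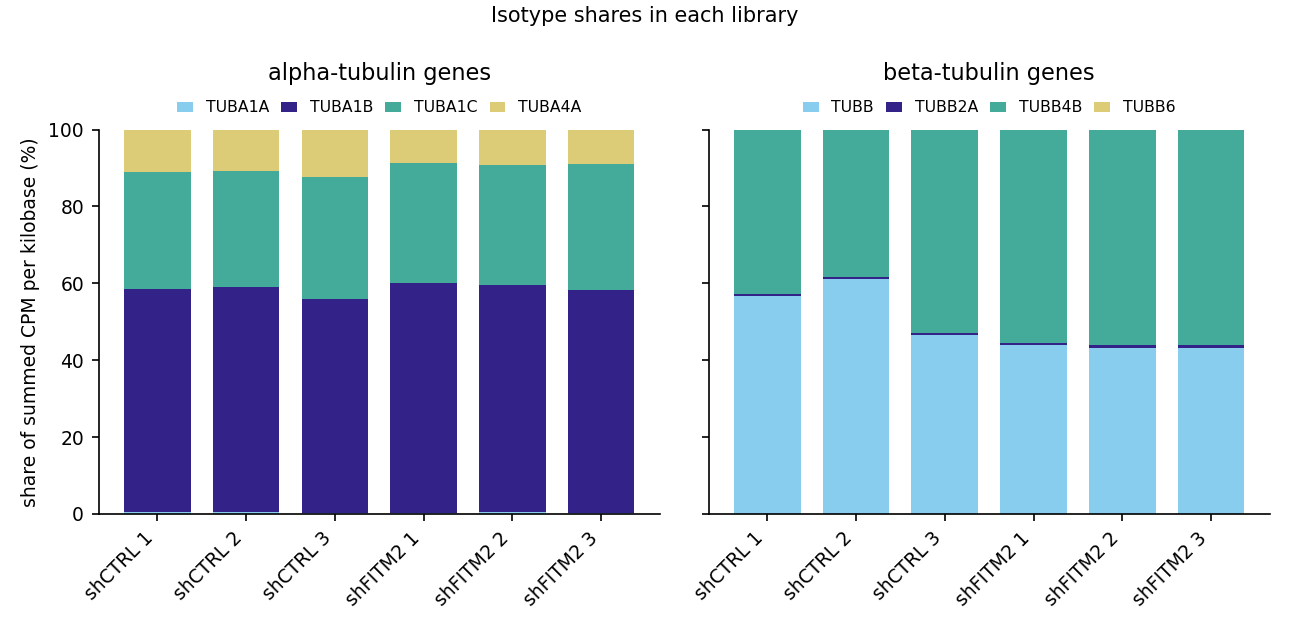
Share of each isotype, in percent of the summed CPM per kilobase of its class, as stacked bars for each of the 6 libraries, for the alpha-tubulins and the beta-tubulins. TUBB4B makes 55.4% to 56.1% of the beta-tubulin level in shFITM2 and 38.3% to 52.8% in shCTRL, and the TUBA4A share is lower in every shFITM2 library.

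Of 98 other genes of the microtubule system, listed by role, 80 were tested. In shFITM2, 26 were called higher and 22 lower, which is 60.0% beside 48.7% of all genes. The offset for GC content left 10 higher and 18 lower, 35.0% beside 29.2% of all genes, and 7 higher and 11 lower genes were called the same way in both fits. The median log2 fold change over the lists was -0.02, and -0.01 with the offset. Adjusted p-values below are those of edgeR's quasi-likelihood test over all genes.

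Of 15 other tubulin genes, 8 were tested. TUBG1, the gamma-tubulin that nucleates microtubules, was at 41.1 and 51.3 CPM and was called higher (log2 fold change 0.32, adjusted p = 0.0439). This call was lost when any library other than shCTRL library 3 was left out, and with the GC offset the value was -0.11 (adjusted p = 0.337). TUBG2, its paralog, rose from 5.78 to 8.63 CPM (0.58, adjusted p = 0.0206), but was not called without shCTRL library 1, shFITM2 library 1 or shFITM2 library 3. The centriolar tubulins TUBD1 (-0.60, adjusted p = 0.00361) and TUBE1 (-0.76, adjusted p = 0.00167) fell, and neither they nor TUBG2 were called with the offset. TUBA3D, TUBAL3, TUBB1 and TUBB2B did not pass the test in either fit. The neuronal isotypes were scarce, with 16 reads of TUBB3 and 1 read of TUBB4A over the 6 libraries, and TUBA8, TUBA4B and TUBA3E had 9, 5 and 4 reads. Of the TPPP and stathmin families, STMN3 was called higher beside TPPP (3.21 and 5.28 CPM, log2 fold change 0.71, adjusted p = 0.00973), and its value with the offset was -0.01 (adjusted p = 0.978).

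Of the 3 genes of tubulin mRNA autoregulation, 1 was called. TTC5, the factor that binds the first residues of a nascent tubulin chain, was at 13.0 and 10.9 CPM (-0.25, adjusted p = 0.146, and 0.04 with the offset). SCAPER, the adaptor, was at 16.5 and 15.5 CPM (-0.08, adjusted p = 0.527, and 0.20 with the offset). CNOT11, the deadenylase subunit, was called lower, from 132 to 114 CPM (-0.21, adjusted p = 0.0203, and -0.25 with the offset, adjusted p = 0.00131). Without the offset that call was lost when shCTRL library 1 or any of the shFITM2 libraries was left out, with adjusted p from 0.0530 to 0.0971.

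All 13 tubulin folding cofactors and prefoldin subunits were tested, and 7 were called higher and 3 lower. Of these, 4 and 2 were also called with the offset, in the same direction, and no others were. Prefoldin delivers unfolded tubulin and actin to the chaperonin TRiC, and its subunits moved in different directions. PFDN6 stood at 10.7, 7.57 and 12.6 CPM in shCTRL and 33.6, 36.7 and 28.8 CPM in shFITM2, a rise of 1.69 ± 0.17 (adjusted p = 7.35e-05), and of 1.24 with the offset (adjusted p = 5.25e-06). RGL2 and WDR46 overlap PFDN6 on the opposite strand. PFDN5 rose from 64.3 to 94.8 CPM (0.56, adjusted p = 0.000185, and 0.44 with the offset). VBP1, the subunit also called prefoldin 3, fell from 156 to 96.6 CPM (-0.69, adjusted p = 0.000127, and -0.27 with the offset, adjusted p = 0.00157).

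Enzymes that modify the tails or the acetylated lysine were split, with 4 of 17 tested genes called higher and 3 lower (1 and 2 with the offset). No gene was called lower in both fits. HDAC6, the main tubulin deacetylase, stood at 50.9 CPM in shCTRL and rose by 0.65 ± 0.07 (adjusted p = 6.99e-05) and was the only one called higher in both fits (0.22 with the offset, adjusted p = 0.0292). Its call with the offset was lost when any library other than shCTRL library 2 was left out (0.14, adjusted p = 0.0663, without shCTRL library 3). SIRT2, another tubulin deacetylase, rose by 0.56 (adjusted p = 0.000649), and its value with the offset was 0.07 (adjusted p = 0.602). AGTPBP1, which shortens polyglutamate chains, fell by 0.47 on the log2 scale (adjusted p = 0.00103), with -0.12 under the offset (adjusted p = 0.336).

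The gamma-tubulin ring complex is the template from which microtubules grow, and 3 of its 9 genes were called higher and 5 lower (1 and 5 with the offset). Calls turned direction with the offset for MZT1 (-0.36 to 0.22) and TUBGCP2 (0.32 to -0.16), both named after their values were seen. TUBGCP5 fell in both fits (-0.58, adjusted p = 0.000645, and -0.39 with the offset, adjusted p = 0.00527), among 3 genes of the list that did so. NEDD1, its targeting subunit, fell from 51.0 to 33.3 CPM (-0.62, adjusted p = 0.000187) and MZT2B rose from 20.4 to 40.5 CPM (0.99, adjusted p = 0.000298), and neither was called with the offset (-0.13 and 0.11).

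Of 23 tested microtubule-associated and end-binding proteins, 8 were called higher and 6 lower (4 and 6 with the offset), and 2 and 4 of these in both fits. MAP1S (0.58 to -0.29) and EML3 (0.46 to -0.26), named after their values were seen, were called higher in the group fit and lower with the offset. The 3 with the smallest p all fell. EML4, which binds along microtubules, fell from 317 to 211 CPM (-0.59, adjusted p = 0.000138, and -0.27 with the offset). SLAIN2, which promotes growth at plus ends, fell by 0.63 (adjusted p = 0.000198), and MAP7D3 fell by 0.91 (adjusted p = 0.000378), with -0.28 and -0.73 under the offset.

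Of 5 severing genes tested, each fit called 2 lower and none higher, and 1 gene was called lower in both. FIGNL1 fell from 63.2 to 40.3 CPM (-0.65, adjusted p = 0.000319, and -0.24 with the offset, adjusted p = 0.0116). Its call with the offset was lost without shFITM2 library 1 or 3. SPAST, the severing enzyme spastin, fell from 40.1 to 31.3 CPM (-0.36, adjusted p = 0.00795), and its value with the offset was 0.01 (adjusted p = 0.958).

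**Figure D5:**
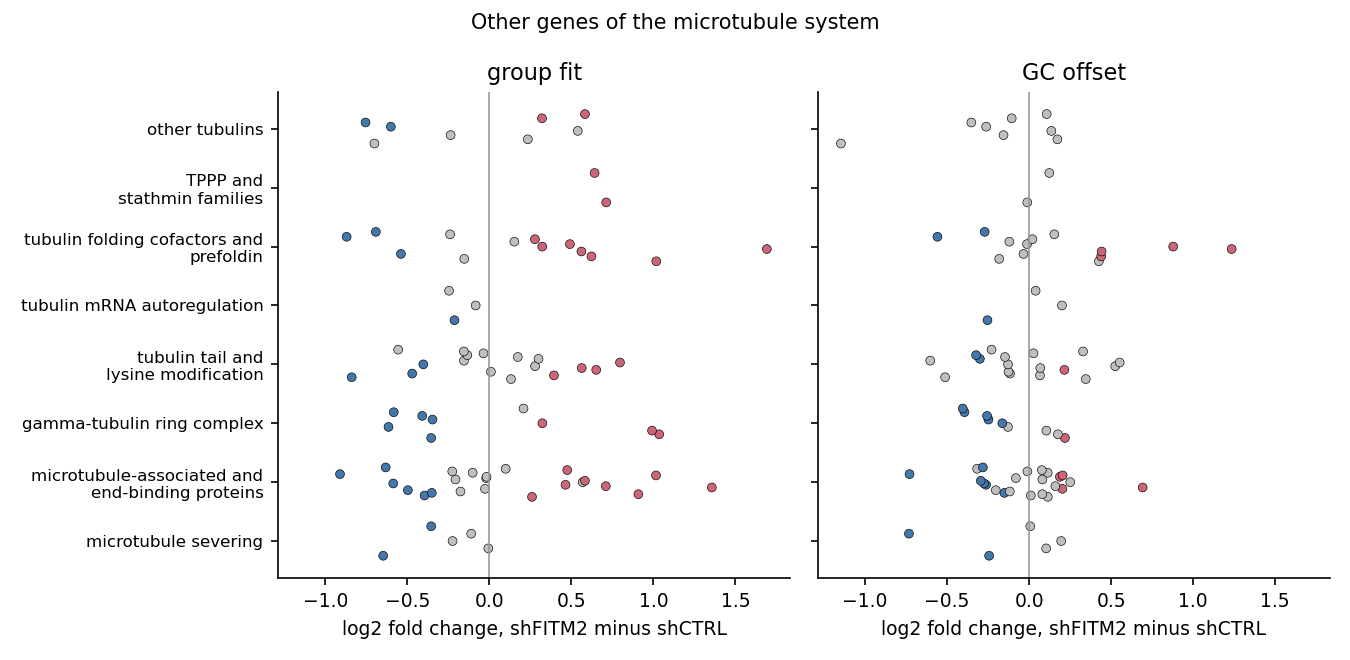
Log2 fold change (shFITM2 minus shCTRL) of the tested genes of each microtubule list, in the group fit and with the GC offset, with genes called higher in red, lower in blue and the others in grey. Of 80 genes, 26 are called higher and 22 lower in the group fit, and 10 and 18 with the offset.

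The genes whose log2 CPM over the 6 libraries lay closest to that of TPPP3 were found among 9937 protein-coding genes with a mean of at least 5 CPM. The measure was the root mean square difference of the centred log2 profiles, and it is given as a description. The closest was TAF10, at 0.216, then FAM207A at 0.234, PSENEN at 0.252, OST4 at 0.264 and PSMB10 at 0.271. TAF10 went from a mean of 8.58 to 39.6 CPM and PSENEN from 2.95 to 21.1 CPM (log2 fold changes of 1.54 and 2.72 with the offset).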

How the data were processed

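Per the labels' protocols, HT29 RNA was taken with Trizol and libraries were built with the NEBNext Ultra Directional kit. The authors deposited 1 table of unnormalised gene counts with 58978 genes. The submitters' processing notes name featureCounts 1.5.0-p3, HISAT2 2.0.5, DESeq2 1.16.1 and StringTie 1.3.3b, and hg19. All 58735 genes with an Ensembl identifier had the start, end and strand of GENCODE 29 on GRCh38 (that release supplied sequences, GC content and positions). For the use of strand in counting and for reads with several matches, the setting was not given in the sources used here.

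Low counts were filtered with filterByExpr (minimum count 10, minimum total 15), normalised by TMM and fitted with edgeR 4.0.16 (R 4.3.3) as a robust quasi-likelihood model with group as the only term. The model's p-values were adjusted by Benjamini-Hochberg over all 14809 genes tested, with a call threshold of 0.05. A second fit added a gene-by-library offset fitted as a spline with 6 degrees of freedom to the deviation of log2 CPM against GC content of 1 transcript per gene, and 14635 genes entered it. DESeq2 1.42.0, limma 3.58.1 (voom), other scalings and filters, a replicate block and leaving out each library were alternatives. CPM uses TMM-scaled totals, and levels per kilobase use the length given in the table. Overlaps between genes are those of whole annotated spans, introns included. Only the group fit and the fit with the GC offset were tested on simulated counts. The simulation used the same dispersion for all genes and libraries and a straight GC trend, so it did not copy the noise of these libraries.

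Members and gene lists were chosen with earlier results of these data known. The genes named are FITM2, the members, their overlapping genes, the other tubulin genes with reads, the tested autoregulation genes, up to 3 genes with the smallest p in each other list, the 5 protein-coding genes of at least 5 CPM closest to TPPP3, and the pseudogene with most reads per class. Total counts were 16964075 to 18855731 per library. Replicates differed by more than sampling noise and were each counted. A coding end and 1 gene that the naming rule selects are not reported here.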

Additional observations from a re-analysis of the deposited data

How the results depend on the processing

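The GC offset had the widest effect: 4275 genes were called (1732 higher) in place of 7205, and 28 of the 80 microtubule genes (10 higher) in place of 48. The summed alpha-tubulins then had a log2 fold change of -0.28 and the beta-tubulins of -0.27, also with pseudogene rows added, an alternative chosen after seeing the data. Among genes named by the rule and called without the offset, the sign turned for TUBG1 (-0.11), STMN3 (-0.011) and SPAST (0.0072). It also turned for the beta-tubulin sum, for TUBB4B, TUBA1A, TTC5, SCAPER and STK16, none of them called in either fit, and for MZT1, TUBGCP2, MAP1S and EML3, called in opposite directions. The cause was not tested. Leaving out 1 library gave 5338 to 9008 calls, the most without shCTRL library 3, and with the offset 2806 to 5618. Over both kinds of fit, genes called higher numbered 1110 to 4505 and lower 1696 to 4503, and microtubule genes 19 to 52 (5 to 28 higher, 14 to 24 lower). In the same fits the alpha-tubulin sum ran from -0.29 to -0.082, the beta-tubulin sum from -0.30 to 0.12, TUBG1 from -0.17 to 0.47, TUBG2 from -0.033 to 0.74, STMN3 from -0.27 to 0.81, SIRT2 from -0.0080 to 0.61 and SPAST from -0.42 to 0.036.

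Replicate numbers did not pair the libraries (correlation of same-numbered deviations -0.041, -0.0066 and -0.065). A replicate block gave 6729 calls, with TUBB4B among them and TUBB not. A replicate block with the GC offset gave 4181 calls (1716 higher), 26 microtubule genes (9 higher), TUBG1 at -0.10, SPAST at 0.0064, and sums of -0.28 and -0.27.

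With transcript length in place of the table's length, TUBA1B made 65.4% and 66.7% of the alpha-tubulin level in shCTRL and shFITM2, TUBA1C 24.6% and 25.3%, and TUBA4A 9.67% and 7.59%. In shFITM2, TUBB then made 40.8%, TUBB4B 58.5% and TUBB2A 0.624% of the beta-tubulin level, and TUBB6 made 0.0660% in shCTRL and 0.0525% in shFITM2. Besides TUBB4B, which DESeq2 called higher, the calls of the 10 members did not change with other scalings, filters, DESeq2 or voom. Depth limits TUBB6 and TUBA1A most.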
